A study of Mus musculus with 6 samples.

Results

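Receptor genes for neurotrophins and for the ciliary neurotrophic factor (CNTF) and leukaemia inhibitory factor (LIF) family were compared between motor neuron samples of 2 spinal levels, cervical and thoracic, in the mouse embryo (e12.5). The 6 genes Ntrk2, Ntrk3, Ngfr, Cntfr, Lifr and Il6st were taken by symbol from a table of 56805 genes, because they encode these receptors. Earlier results of these data were known when they were chosen. Ribosomal RNA-depleted total RNA was sequenced in 3 cervical and 3 thoracic libraries, all labelled as motor neurons of control genotype without treatment. The series title places them in work on Hox5 genes and motor neuron diversity. Strain, the way the cells were isolated and what 1 replicate is (an embryo, a litter or a pool) are not stated in the labels, so p-values measure only the spread between these libraries. No manipulated group is among them, and the difference between the groups is the spinal level.

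Neurotrophins are secreted survival and growth factors that act through receptor tyrosine kinases of the Trk family and through p75, the product of Ngfr. TrkB (Ntrk2) binds brain-derived neurotrophic factor and neurotrophin 4, TrkC (Ntrk3) binds neurotrophin 3, and p75 binds all neurotrophins with lower selectivity. CNTF binds a receptor subunit without an intracellular domain (Cntfr), which joins the signalling subunits LIFR (Lifr) and gp130 (Il6st); LIF uses LIFR and gp130 without Cntfr. These complexes activate JAK kinases and the transcription factor STAT3. Mice that lack Cntfr, Lifr or Il6st are known to lose motor neurons before or around birth, during the period of programmed cell death that follows the stage studied here.

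Library totals were 32103071 to 33790634 counts, apart from thoracic replicate 1 with 53186131. Levels are CPM (the share of a library's counts, scaled to a common total) after TMM scaling, a correction for library composition, and levels per length are CPM per kb of annotated exon. In a region-only fit with edgeR's quasi-likelihood test and Benjamini-Hochberg adjustment over all 21972 tested genes, 119 (0.542%) differed between the regions at an adjusted p below 0.05. The 7 motor neuron markers (Mnx1, Isl1, Isl2, Chat, Slc18a3, Slc5a7 and Prph) were tested and present in every library, summing to 594, 294 and 395 CPM in cervical replicates 1, 2 and 3 and to 547, 349 and 483 CPM in thoracic replicates 1, 2 and 3. Of these 7 markers, 5 had a log2 fold change below 0 and 2 (Mnx1, 0.16, and Prph, 0.32) above it, with a median of -0.37. None was called in the region-only fit, while Isl1 (-0.63) and Slc18a3 (-0.59) were called lower in cervical libraries with the replicate block described below (edgeR adjusted p = 0.00105 and 0.0303). The 11 interneuron markers were also tested and summed to 1717 to 1907 CPM in cervical libraries and 1437 to 1506 CPM in thoracic ones. Of these 11 markers, 8 had a log2 fold change above 0. In the region-only fit 3 were called higher in cervical libraries, Pax2 (0.33), Lhx1 (0.45) and Slc6a5 (0.45; edgeR adjusted p = 0.0462, 0.0256 and 0.0417). With the block 4 were called, these and Gad2 (0.31, edgeR adjusted p = 0.0280). The libraries thus held RNA of other neural cells, and in such bulk samples fewer cells of a type and less RNA per cell cannot be told apart.

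All 6 receptor genes were expressed well above the low-count limit in every library, and none was called different between cervical and thoracic motor neuron samples in the region-only fit. Thus 0 of 6 were called by edgeR, against 0.542% of all tested genes, and 0 of 6 were called by DESeq2 (2.1% of all genes with an adjusted p) or by limma-voom (0.487%). Without a filter on low counts 2 of 6 were called, Ngfr and Il6st, where 1.91% of all genes were. At an unadjusted p below 0.05 the count was 1 of 6, that of Il6st, where 8.47% of all genes passed. Cervical and thoracic values overlapped for all 6, while 13.7% of all tested genes had no overlap. Fitted differences were small, from a log2 fold change (cervical minus thoracic) of -0.35 for Il6st to 0.21 for Ntrk3, with a median of -0.16 over the 6 genes and 0.01 over all genes tested. Deviations from region means correlated weakly between libraries of the same replicate number (0.160 to 0.195), so a fit with the replicate number as a block was also made. It called 432 genes (1.97%), of which those lower in cervical libraries were 1.39% of all tested, and 1 of the 6 receptors, Il6st, lower in cervical than in thoracic libraries.

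**Figure D1:**
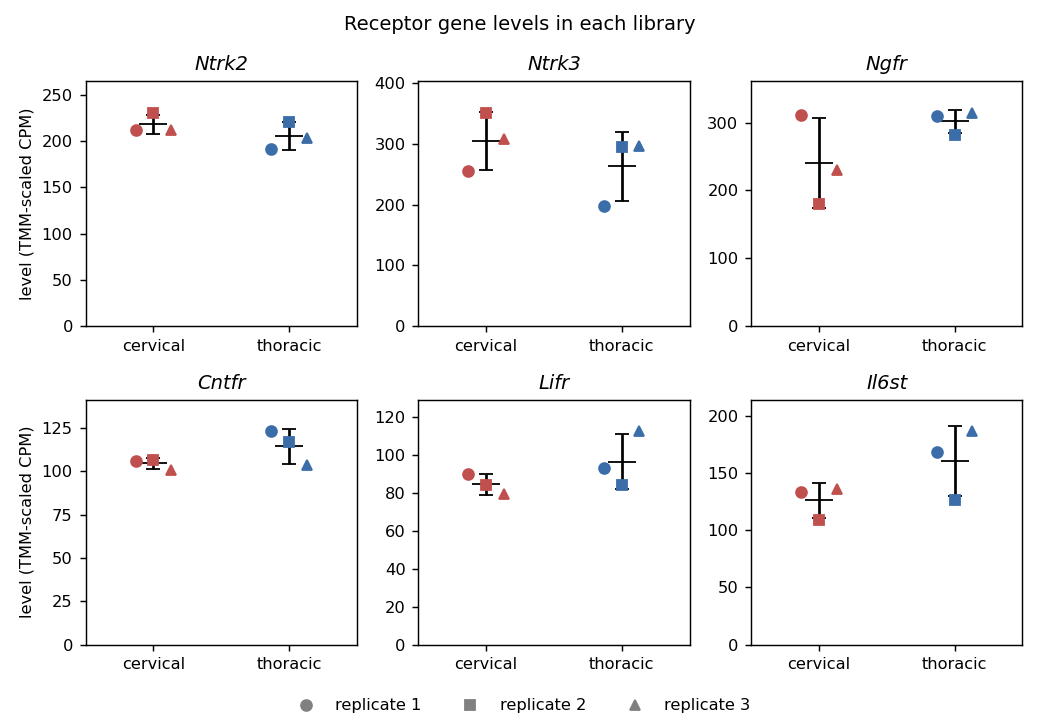
Levels of the 6 receptor genes in TMM-scaled CPM (vertical axes from 0), cervical left and thoracic right; each symbol is 1 library, with the shape giving its replicate number, and the bar and whiskers are mean and SD of 3 libraries. Cervical and thoracic values overlap in every panel, and Ngfr is lowest in cervical replicate 2 at 180.4 CPM.

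Among the Trk receptors, Ntrk2 was nearly even across the libraries. It had 211.8, 230.5 and 212.3 CPM in cervical replicates 1, 2 and 3, against 191.8, 221.3 and 203.2 CPM in thoracic replicates 1, 2 and 3. The cervical value was the higher one within each replicate number, but the thoracic value of replicate 2 exceeded the cervical values of replicates 1 and 3. Means were 218.2 ± 10.6 CPM in cervical libraries and 205.4 ± 14.9 CPM in thoracic ones (SD, n = 3 each), a log2 fold change of 0.09 (SE 0.07, edgeR adjusted p = 0.828). The 95% interval of that difference runs from -0.06 to 0.24, which on the linear scale is 0.959-fold to 1.18-fold. Leaving out 1 library gave log2 fold changes from 0.04 without thoracic replicate 1 to 0.15 without thoracic replicate 2, none of which passed. Ntrk2 lies on chromosome 13 from 58954383 to 59281784 (mm39) on the plus strand. The gene also makes shortened TrkB forms without the kinase domain, and counts per gene do not tell those forms from the full-length receptor.

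Ntrk3 varied more between libraries than between regions. It stood at 256.2, 351.3 and 308.7 CPM in cervical replicates 1, 2 and 3, and at 197.7, 295.2 and 296.9 CPM in thoracic replicates 1, 2 and 3. In each region replicate 1 was the lowest, and thoracic replicate 1 was the lowest of all 6. The means were 305.4 ± 47.7 CPM in cervical libraries and 263.2 ± 56.7 CPM in thoracic ones (SD, n = 3 each), with a log2 fold change of 0.21 (SE 0.15, edgeR adjusted p = 0.807). Without thoracic replicate 1 the log2 fold change was 0.04 (edgeR adjusted p = 0.989). With the replicate block it was 0.23 with an SE of 0.07, and the edgeR adjusted p of 0.123 did not pass. The gene lies on chromosome 7 from 77825707 to 78387760 (mm39, minus strand). It shares 99 exonic bases with Gm9885 on the opposite strand, whose counts of 92 to 186 per library come to 1.40% of those of Ntrk3.

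Ngfr, which encodes p75, had the widest spread of the 6 genes, and it lay in the cervical libraries. Cervical replicates 1, 2 and 3 had 312.1, 180.4 and 230.7 CPM, and thoracic replicates 1, 2 and 3 had 309.3, 282.1 and 314.3 CPM. Cervical replicate 1 was at the thoracic level, whereas cervical replicates 2 and 3 lay below all thoracic libraries. On average Ngfr stood at 241.0 ± 66.4 CPM in cervical libraries and 301.9 ± 17.3 CPM in thoracic ones (SD, n = 3 each), a log2 fold change of -0.33 (SE 0.15, edgeR adjusted p = 0.611). The coefficient of variation was 27.6% in cervical and 5.73% in thoracic libraries. Without cervical replicate 1 the log2 fold change was -0.55 and the gene was called (edgeR adjusted p = 0.0286, in a fit that called 0.701% of genes). Without cervical replicate 2 the log2 fold change was -0.16 (edgeR adjusted p = 0.901), so the value and the call depend on which cervical library is included. With the replicate block it was -0.36 (SE 0.09, edgeR adjusted p = 0.0810).

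Motor neuron markers moved with Ngfr in the cervical libraries. Their sum was 594 CPM in cervical replicate 1, where Ngfr was high, and 294 CPM in cervical replicate 2, where it was low, with 395 CPM in between in cervical replicate 3. In thoracic replicates 1, 2 and 3 the sum was 547, 349 and 483 CPM, and Ngfr was 309.3, 282.1 and 314.3 CPM. Thoracic replicate 2 was thus the lowest in both, while the sum was highest in thoracic replicate 1 and Ngfr in thoracic replicate 3. Sensory ganglion and Schwann cell precursors also express p75. The 5 tested sensory ganglion markers summed to 69.8 to 88.8 CPM in cervical libraries and 54.6 to 73.3 CPM in thoracic ones, and the 6 Schwann and neural crest markers to 317 to 347 CPM in cervical libraries and 252 to 285 CPM in thoracic ones. The sum of Schwann and neural crest markers was thus higher in all cervical libraries, while Ngfr was not. Of these 6 markers 1, Foxd3, was called in the region-only fit (log2 fold change 0.38, edgeR adjusted p = 0.0207). Sox10, the defining factor of Schwann cell precursors, averaged 2.88 ± 1.39 CPM in cervical libraries and 3.21 ± 0.871 CPM in thoracic ones (SD, n = 3 each), and most of the sum came from Foxd3 and Ednrb, genes that spinal neurons or progenitors also express. The part of these cell types in the Ngfr values was not tested.

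Ngfr lies on chromosome 11 from 95459644 to 95478561 (mm39, minus strand). The 250 bases before its start are shown because it was the most abundant of the 6 genes per length; they are from RefSeq (GRCm38.p6), chr11:95587699-95587948 on the minus strand, read 5′ to 3′, with the GC box letters GGGCGG in capitals on either strand.
Ngfr: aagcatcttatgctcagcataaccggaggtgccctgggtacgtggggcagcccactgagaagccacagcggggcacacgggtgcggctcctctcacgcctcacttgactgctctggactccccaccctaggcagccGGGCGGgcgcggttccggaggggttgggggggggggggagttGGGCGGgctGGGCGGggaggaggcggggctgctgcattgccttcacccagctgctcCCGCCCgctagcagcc
The stretch holds 4 such matches and 70.4% G and C bases, against a median of 52.4% over 32851 promoter entries of the same length. GGGCGG occurs on either strand in 32.7% of those entries. A match describes the letters only and shows no binding.

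Cntfr, the subunit that makes a cell responsive to CNTF, varied little. Its values were 106.3, 106.7 and 101.1 CPM in cervical replicates 1, 2 and 3 and 123.1, 117.3 and 103.5 CPM in thoracic replicates 1, 2 and 3. The thoracic value was the higher one within each replicate number, but thoracic replicate 3 fell inside the cervical range. Means were 104.7 ± 3.09 CPM in cervical libraries and 114.6 ± 10.1 CPM in thoracic ones (SD, n = 3 each), a log2 fold change of -0.13 (SE 0.07, edgeR adjusted p = 0.698). Its 95% interval, -0.29 to 0.02, has its lower bound at a cervical level of 0.821 times the thoracic one. Without thoracic replicate 1 the log2 fold change was -0.08, and without thoracic replicate 3 it was -0.20, neither of which passed. Cntfr lies on chromosome 4 from 41657498 to 41697089 (mm39, minus strand).

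Lifr, which encodes the signalling subunit shared by LIF and CNTF, had its highest value in thoracic replicate 3. It measured 89.9, 84.0 and 79.0 CPM in cervical replicates 1, 2 and 3, and 92.9, 83.8 and 112.1 CPM in thoracic replicates 1, 2 and 3. The regions overlapped, and replicate 2 had almost the same level in each. Mean levels were 84.3 ± 5.46 CPM in cervical libraries and 96.3 ± 14.5 CPM in thoracic ones (SD, n = 3 each), and the log2 fold change was -0.19 (SE 0.10, edgeR adjusted p = 0.677). Without thoracic replicate 3 the log2 fold change was -0.07 (edgeR adjusted p = 0.942). The gene lies on chromosome 15 from 7120095 to 7226970 (mm39, plus strand).

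Il6st, which encodes gp130, showed the largest fitted difference of the 6 genes. Cervical replicates 1, 2 and 3 had 133.4, 108.8 and 136.2 CPM, against 168.4, 126.7 and 186.4 CPM in thoracic replicates 1, 2 and 3. Within each replicate number the cervical value was lower, and the overlap of the regions came from thoracic replicate 2, which lay below cervical replicates 1 and 3. Mean levels were 126.1 ± 15.1 CPM in cervical libraries and 160.5 ± 30.6 CPM in thoracic ones (SD, n = 3 each). The log2 fold change was -0.35 (SE 0.13, 95% interval -0.63 to -0.06), or 1.27-fold lower in cervical libraries, and it did not pass (edgeR adjusted p = 0.442). With the replicate block it was -0.34 with an SE of 0.06 and passed (edgeR adjusted p = 0.0137, where 1.97% of genes were called). Leaving out 1 library at a time without the block gave log2 fold changes from -0.49 without thoracic replicate 2 to -0.23 without thoracic replicate 3, none of which passed (edgeR adjusted p 0.112 to 0.787).

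Il6st lies on chromosome 13 from 112600604 to 112646620 (mm39, plus strand). The 250 bases before its start are shown because it is the receptor called with the block; they are from RefSeq (GRCm38.p6), chr13:112463820-112464069 on the plus strand, 5′ to 3′, with GGGCGG and CCAAT in capitals on either strand.
Il6st: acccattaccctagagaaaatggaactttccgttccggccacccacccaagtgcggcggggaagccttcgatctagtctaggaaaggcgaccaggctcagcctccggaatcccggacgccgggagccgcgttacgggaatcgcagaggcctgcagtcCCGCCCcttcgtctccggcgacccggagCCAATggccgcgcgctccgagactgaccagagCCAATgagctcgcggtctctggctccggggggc
It holds 1 GGGCGG match and 2 CCAAT matches, which begin 65 and 33 bases before the start. CCAAT occurs in 33.8% of the 32851 entries on either strand. The STAT palindrome TTCNNNGAA is in 7.02% of entries on either strand and not in this window, which says nothing about STAT binding. Promoter entries were found for 5 of the 6 genes; Ntrk3 had no match.

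**Figure D2:**
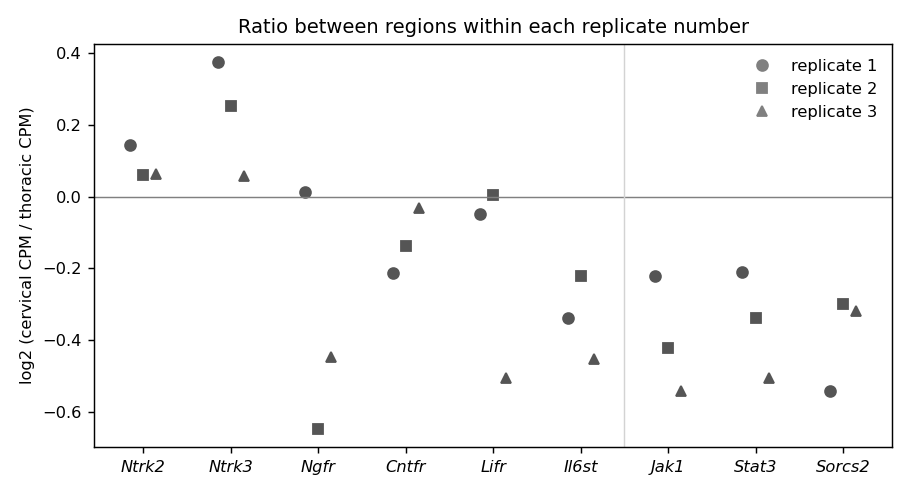
Log2 ratio of cervical to thoracic CPM within each replicate number (vertical axis; shapes give the replicate number) for the 6 receptor genes and, right of the line, for Jak1, Stat3 and Sorcs2. Il6st ratios are -0.34, -0.22 and -0.45, and Ngfr ratios run from -0.65 to 0.01.

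Within replicate numbers, 4 of the 6 genes had the same sign in all 3 pairs, 2 with cervical higher (Ntrk2 and Ntrk3) and 2 with thoracic higher (Cntfr and Il6st). Of all tested genes 31.4% had the same sign in all 3 pairs, 15.0% with cervical higher and 16.4% with thoracic higher. Log2 ratios were 0.14, 0.06 and 0.06 for Ntrk2, and 0.37, 0.25 and 0.06 for Ntrk3 in replicates 1, 2 and 3. Cntfr had -0.21, -0.14 and -0.03, so its difference was smallest in replicate 3. The signs were mixed for Ngfr (0.01, -0.65 and -0.45) and Lifr (-0.05, 0.00 and -0.51), and in Lifr replicate 3 carried nearly all of the difference.

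Per exon length, Ngfr was the most abundant receptor, and by the mean over all 6 libraries Lifr was the least, although in thoracic libraries Ntrk3 averaged less. Ngfr averaged 69.9 ± 19.3 CPM per kb in cervical and 87.6 ± 5.02 CPM per kb in thoracic libraries (SD, n = 3 each), and Cntfr 37.6 ± 1.11 and 41.2 ± 3.62 CPM per kb in cervical and thoracic libraries. Next came Il6st at 11.4 ± 1.36 CPM per kb in cervical and 14.5 ± 2.76 CPM per kb in thoracic libraries, and Ntrk2 at 11.3 ± 0.552 and 10.6 ± 0.770 CPM per kb in cervical and thoracic libraries. Ntrk3 had 10.1 ± 1.58 and 8.73 ± 1.88 CPM per kb in cervical and thoracic libraries, and Lifr 7.82 ± 0.507 and 8.94 ± 1.34 CPM per kb. The levels of Ngfr and Cntfr, and those of Cntfr and Il6st, did not overlap over the 6 libraries, whereas Il6st, Ntrk2, Ntrk3 and Lifr each overlapped with their neighbour in this order. Against a median of 2.71 CPM per kb over all tested genes, Ngfr lay at percentile 98.9, Cntfr at 96.3 and Lifr at 73.8. Exon lengths join all annotated forms, 30.17 kb for Ntrk3 and 19.292 kb for Ntrk2 against 2.782 kb for Cntfr, and a level per length is lower where long exons are not used in these cells.

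**Figure D3:**
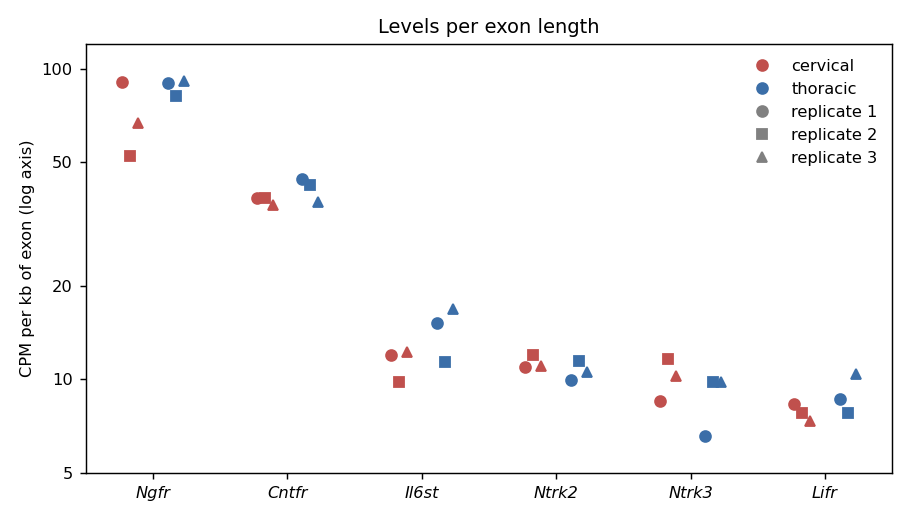
CPM per kb of annotated exon (log axis) for the 6 receptor genes, ordered by mean level, with cervical libraries on the left of each pair and thoracic on the right; symbols are single libraries. Ngfr lies highest, Cntfr next, and the other 4 genes share a range from 6.55 to 16.8 CPM per kb.

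Ratios between receptors that work together overlapped between the regions. Lifr per Il6st, on the per-length scale, was 0.696 ± 0.0990 in cervical and 0.623 ± 0.0566 in thoracic libraries (SD, n = 3 each) and below 1 in all 6 libraries. Cntfr per Lifr was 4.82 ± 0.209 in cervical and 4.71 ± 0.993 in thoracic libraries. Ntrk2 per Ntrk3 ranged from 1.03 to 1.29 in cervical and from 1.07 to 1.52 in thoracic libraries. Ngfr per summed Ntrk2 and Ntrk3 was 4.65, 2.22 and 3.15 in cervical replicates 1, 2 and 3 and 5.44, 3.85 and 4.48 in thoracic replicates 1, 2 and 3. It was lower in cervical libraries within each replicate number, although cervical replicate 1 lay inside the thoracic range.

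Of 74 ligand, partner and pathway genes in 8 lists, 66 were tested, and 1, Jak1, differed between the regions in the region-only fit (0.542% of all tested genes did). With the replicate block 3 were called, Jak1, Stat3 and Sorcs2, all lower in cervical libraries, where 1.97% of all genes were called. DESeq2 called the same 3 genes without the block, where 2.1% of all genes with an adjusted p were called. Without a filter on low counts edgeR called these 3 and Ndn, where 1.91% of all genes were called. With limma-voom none was called. Leaving out 1 library gave 0 or 1 called gene, with none in the 4 fits without replicate 2 or 3 of either region. Over the 66 genes the median log2 fold change was -0.04, against 0.01 over all genes tested, and 20 lay above 0.

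Ligand genes were low. Bdnf, whose product binds TrkB, averaged 7.56 ± 0.427 CPM in cervical libraries and 6.64 ± 0.472 CPM in thoracic ones (SD, n = 3 each; log2 fold change 0.19, edgeR adjusted p = 0.823). Ntf3, whose product neurotrophin 3 binds TrkC and which motor neurons are known to express, had 7.28, 1.82 and 7.01 CPM in cervical replicates 1, 2 and 3 and 6.64, 3.34 and 5.12 CPM in thoracic replicates 1, 2 and 3. Its replicate 2 was the lowest in each region, as for the summed motor neuron markers. Ntf5 had at most 11 counts in a library and was not tested. Of 8 CNTF and LIF family ligand genes 4 were tested and none was called; Ctf1 (cardiotrophin 1) had a log2 fold change of 0.67 at under 1 CPM (SE 0.49, edgeR adjusted p = 0.822). Lif itself had 1 to 13 counts per library. These libraries say nothing of ligands made by muscle, Schwann cells or other targets outside the samples.

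Other receptors of the interleukin-6 family were low beside Il6st. None of 4 tested was called; Il11ra1 stood at 8.18 ± 0.105 CPM in cervical libraries and 7.46 ± 1.11 CPM in thoracic ones, and Il6ra at 0.798 ± 0.224 and 0.509 ± 0.200 CPM in cervical and thoracic libraries (SD, n = 3 each; log2 fold change 0.63, SE 0.43, edgeR adjusted p = 0.802). Among sortilin family genes, whose proteins pair with p75 or carry Trk receptors, none of 5 was called in the region-only edgeR fit. Sort1, the most abundant per length, had 313.0 ± 12.52 CPM in cervical libraries and 321.9 ± 6.41 CPM in thoracic ones (log2 fold change of -0.04; edgeR adjusted p = 0.932). Sorcs2, a p75 partner for proneurotrophins, had 59.6, 73.6 and 78.3 CPM in cervical replicates 1, 2 and 3 and 86.8, 90.5 and 97.5 CPM in thoracic replicates 1, 2 and 3. All cervical values lay below all thoracic ones, as for 13.7% of all tested genes in either direction. Its log2 fold change was -0.38 (SE 0.10, edgeR adjusted p = 0.166, and 0.0113 with the block). It was also called without the block by DESeq2 (adjusted p = 0.0184, where 2.1% of genes were called). The same held in edgeR without a filter on low counts (adjusted p = 1.8e-04, where 1.91% were called).

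None of 11 p75 partners was called, although 9 of them had a log2 fold change below 0. Maged1, an adaptor of p75 also known as NRAGE, was the most abundant per length, at 995.1 ± 38.7 CPM in cervical libraries and 926.4 ± 58.9 CPM in thoracic ones (log2 fold change of 0.10; edgeR adjusted p = 0.782). Ndn (necdin) had the smallest adjusted p, with a log2 fold change of -0.23 (SE 0.08, edgeR adjusted p = 0.380). Among 16 Trk adaptors and substrates none was called; Kidins220, a scaffold of Trk receptors, stood at 730.0 ± 16.9 CPM in cervical libraries and 782.0 ± 32.0 CPM in thoracic ones, and Shc2 had a log2 fold change of -0.22 (SE 0.09, edgeR adjusted p = 0.537). None of 9 genes of retrograde endosome transport passed, with Rab7, which marks late endosomes, at 105.1 ± 3.04 and 108.0 ± 4.17 CPM in cervical and thoracic libraries and Hap1 at a log2 fold change of -0.25 (SE 0.07, edgeR adjusted p = 0.266).

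In the JAK and STAT list 15 of 16 genes were tested and 1 was called, where 0.542% of all tested genes were. It was Jak1, a kinase that binds the intracellular part of gp130. Jak1 stood at 79.4, 75.6 and 75.4 CPM in cervical replicates 1, 2 and 3 and at 92.5, 101.3 and 109.7 CPM in thoracic replicates 1, 2 and 3. All cervical values were below all thoracic ones, and 13.7% of all tested genes had no overlap in either direction. Mean levels were 76.8 ± 2.21 CPM in cervical libraries and 101.2 ± 8.61 CPM in thoracic ones (SD, n = 3 each), and Jak1 was 1.32-fold lower in cervical libraries (fitted log2 difference -0.40 with an SE of 0.07; edgeR adjusted p = 0.0417, and 0.0115 with the block). The call was lost with limma-voom (adjusted p = 0.0613). It was also lost without cervical replicate 2 (edgeR adjusted p = 0.146), cervical replicate 3 (0.201), thoracic replicate 2 (0.123) or thoracic replicate 3 (0.135), with log2 fold changes from -0.39 to -0.33 in these fits.

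Stat3, the transcription factor downstream of gp130, had 71.4, 58.1 and 65.2 CPM in cervical replicates 1, 2 and 3, against 82.5, 73.4 and 92.5 CPM in thoracic replicates 1, 2 and 3. The cervical values lay below all thoracic ones, and 13.7% of all tested genes had no overlap in either direction. Its log2 fold change was -0.35 (SE 0.10, edgeR adjusted p = 0.220). With the block it passed (edgeR adjusted p = 0.0260, where 1.97% of genes were called). It also passed without the block in DESeq2 (adjusted p = 0.0434, where 2.1% of genes were called). The same held in edgeR without a filter on low counts (adjusted p = 0.00099, where 1.91% were called). Stat3 was singled out after its values were seen. Jak2, the most abundant of the list per length, stood at 72.8 ± 2.97 and 76.4 ± 4.55 CPM in cervical and thoracic libraries (SD, n = 3 each; log2 fold change -0.07, edgeR adjusted p = 0.886). Socs3, a feedback target of STAT3, had 9.92 ± 0.627 CPM in cervical libraries and 7.80 ± 1.93 CPM in thoracic ones (log2 fold change of 0.34; edgeR adjusted p = 0.694), a value on the other side of 0 from those of Il6st, Jak1 and Stat3.

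**Figure D4:**
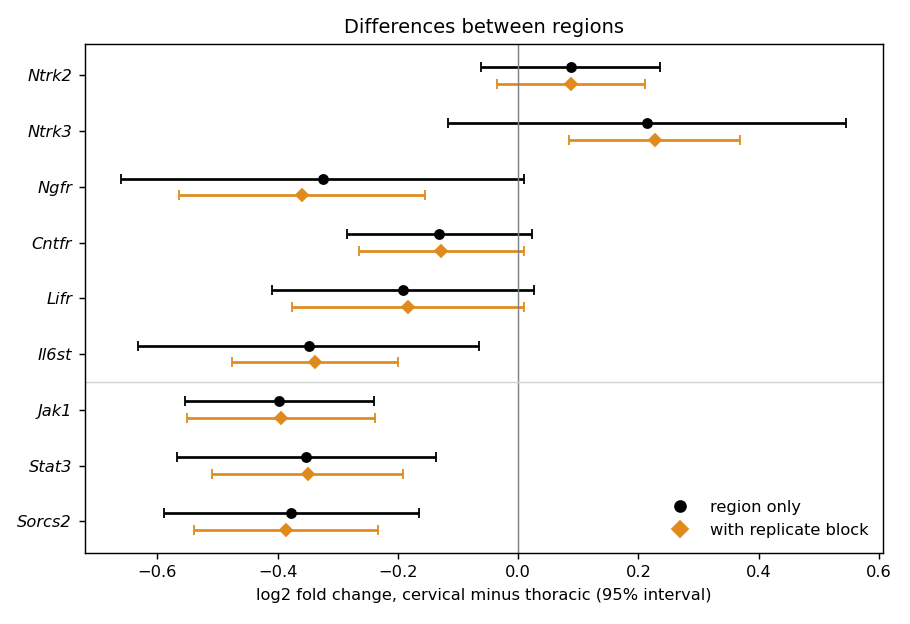
Log2 fold change, cervical minus thoracic, with 95% intervals (horizontal axis) for the 6 receptor genes and, below the line, Jak1, Sorcs2 and Stat3; circles are the region-only fit and diamonds the fit with the replicate block. Intervals of Il6st lie below 0 in each fit, and those of Ntrk2, Cntfr and Lifr reach across 0. Those of Ngfr and Ntrk3 reach across 0 in the region-only fit. With the block they run from -0.56 to -0.15 for Ngfr and from 0.09 to 0.37 for Ntrk3, though neither gene passed after adjustment.

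Markers of neural progenitors and of mesenchyme, cell types that also express Il6st, Jak1 and Stat3, were compared beside these genes. The 7 progenitor markers summed to 773 to 1061 CPM in cervical libraries and 955 to 1286 CPM in thoracic ones, and Nes and Vim had log2 fold changes of -0.45 and -0.48 (edgeR adjusted p = 0.126 and 0.0859, and 0.00090 and 0.00073 with the block). The other 5 progenitor markers were called in neither fit, with log2 fold changes from -0.26 for Sox2 to 0.00 for Slc1a3. The 5 tested mesenchyme markers summed to 13.6, 25.1 and 148 CPM in cervical replicates 1, 2 and 3 and to 84.0, 105 and 157 CPM in thoracic replicates 1, 2 and 3. With the block, Col1a1 and Col3a1 of this list were called lower in cervical libraries (log2 fold changes -1.71 and -1.60, edgeR adjusted p = 0.0122 and 0.0331). In the region-only fit these genes were not called (log2 fold changes -1.20 and -0.91, edgeR adjusted p = 0.669 and 0.824). Col1a2, Pdgfra and Twist1 were called in neither fit. Thoracic replicate 3 had the highest mesenchyme sum and also the highest Il6st, Jak1 and Stat3, at 186.4, 109.7 and 92.5 CPM. Cervical replicate 3 had the highest mesenchyme sum and the highest Il6st of the cervical libraries, at 136.2 CPM, but its Jak1 was the lowest of all at 75.4 CPM. Cervical replicate 1, with the lowest mesenchyme sum of 13.6 CPM, had nearly the same Il6st, at 133.4 CPM. It also had the highest Stat3 of the cervical libraries, at 71.4 CPM. Thoracic replicate 2, with a mesenchyme sum of 105 CPM, had Il6st at 126.7 CPM. Among the motor neuron markers, Isl1 and Slc18a3 were, like Il6st, Jak1 and Stat3, called lower in cervical libraries with the block. Of these genes only Jak1 was also called in the region-only fit. Isl2, Chat and Slc5a7 were called in neither fit, and nor were Mnx1 and Prph, whose log2 fold changes lay above 0. Endothelial markers summed to 4.84 to 11.2 CPM in cervical libraries and 7.55 to 12.02 CPM in thoracic ones, and macrophage markers to 3.87 to 12.6 CPM in cervical libraries and 3.797 to 7.27 CPM in thoracic ones. Of 62 markers of 9 cell types found in the table, none was at 0 in all libraries and 7 were at 0 in at least 1. The part of these cell types in the Il6st, Jak1 and Stat3 values was not tested.

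**Figure D5:**
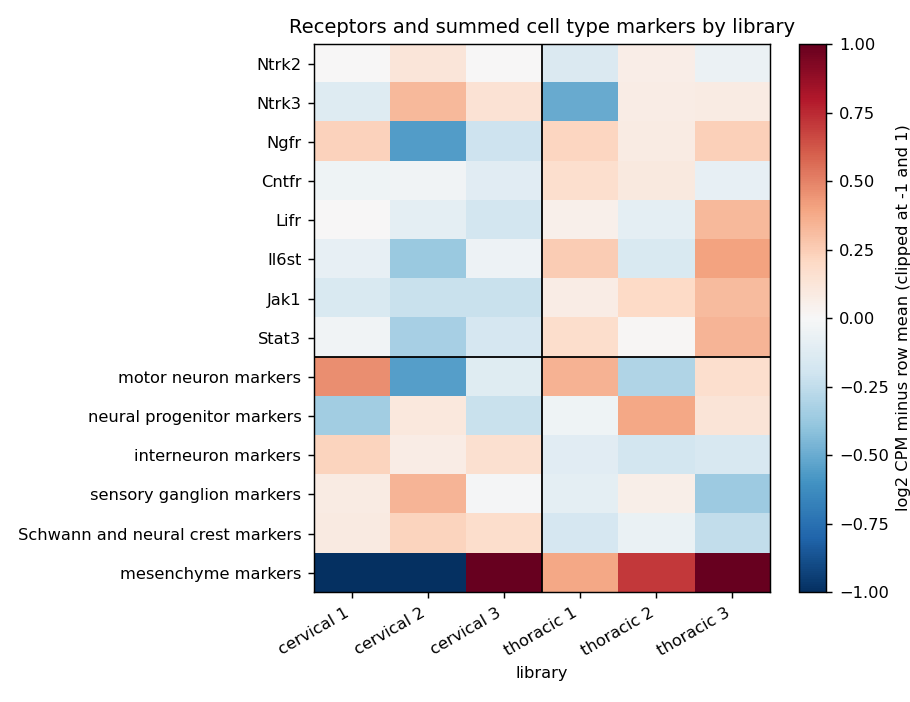
Log2 CPM minus the row mean in the 6 libraries (columns, cervical left) for the 6 receptor genes, Jak1, Stat3 and, below the line, summed markers of 6 cell types; the colour scale is clipped at -1 and 1. Ngfr and the motor neuron markers are lowest in cervical replicate 2, at 180.4 CPM and 294 CPM.

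The 6 receptor genes did not share one pattern over the libraries. The SD of log2 CPM over the 6 libraries was 0.32 for Ngfr, 0.29 for Ntrk3, 0.28 for Il6st, 0.18 for Lifr, 0.11 for Cntfr and 0.09 for Ntrk2, against a median of 0.11 over tested genes with a mean of at least 5 CPM. Cervical replicate 2 had the lowest Ngfr and Il6st and the highest Ntrk2 and Ntrk3, and thoracic replicate 1 had the lowest Ntrk2 and Ntrk3. Likeness to the 2 genes of largest spread was measured over 10919 other genes as the root mean square difference of centred log2 CPM over the 6 libraries. Nearest to Ngfr were Akap12, a scaffold of protein kinase A (0.0789), Gsn, the actin-severing protein gelsolin (0.0822), and Fscn2, an actin-bundling fascin (0.0861), where the median gene was at 0.307. Akap12 itself had 261.6, 167.8 and 197.0 CPM in cervical replicates 1, 2 and 3 and 277.8, 220.4 and 271.5 CPM in thoracic replicates 1, 2 and 3. Nearest to Ntrk3 were the adhesion genes Cadm2 (0.0621) and Cntn6 (0.0806) and the glutamate receptor gene Grm8 (0.0866), where the median gene was at 0.284.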

How the data were processed

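The deposited table holds whole-number read counts per gene with mm39 coordinates. The authors used FastQC 0.11.9, STAR 2.7.5b and featureCounts 2.0.1 (source: the submitters' processing notes), with no annotation release or strand setting stated there. Per the labels' protocols, the library kit was stranded, RNA input was 10 to 20 ng and amplification took 15 cycles. Without the strand setting, reads of overlapping opposite genes cannot be told apart: besides Ntrk3, this touches Jak1 (4 exonic bases with Raver2), Stat3 (72 with Stat5a), Shc2, Rab7, Sort1, Kidins220, Bdnf, Il6ra, Il11ra1 and Ctf1.

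Replicates of 1 region were compared in pairs, on genes with 10 or more reads; chi-square divided by its degrees of freedom was 10.1 to 16.2, above sampling noise, and each library counted as 1 sample. Genes were kept by the default filter of edgeR 4.0.16 in R 4.3.3 (minimum count 10), which removed 34833 genes with 0.117% of counts. Log2 fold changes use a prior count of 0.125, and the SE is the absolute log2 fold change over the root of the F statistic. Alternatives were DESeq2 1.42.0, limma 3.58.1 voom, other scalings and filters, a replicate block and each library left out. Replicate numbers come from the sample titles. Deviations from region means correlated at 0.163, 0.160 and 0.195 between same-numbered libraries. Between libraries of unlike number they correlated at -0.179 to 0.008. Deviations from a region's mean cancel over its libraries, so positive values between same-numbered libraries make the others negative on average. The values for unlike numbers are therefore not separate evidence of pairing. The numbers were taken to pair the libraries, although these correlations are weak.

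The genes and lists were chosen with earlier results of these data known. Named pathway genes are each list's called genes, its smallest adjusted p and its most abundant gene per length, apart from items not reported here. Stat3, Socs3, Nes, Vim, Sox2, Slc1a3, Col1a1, Col3a1, Col1a2, Pdgfra, Twist1, Isl1, Slc18a3, Mnx1, Prph, Pax2, Lhx1, Slc6a5, Gad2, Ndn, Sox10, Foxd3, Ednrb, Lif and Ntf5 were named after their values were seen.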

Additional observations from a re-analysis of the deposited data

How the results depend on the processing

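The direction of each of the 6 receptor genes was the same under all 13 alternatives. The call changed for Ngfr and Il6st. Without a filter on low counts 747 genes were called (1.91%) and 2 receptors, Ngfr and Il6st, with edgeR adjusted p of 2.3e-04 and 1.4e-04. With the replicate block, 432 genes and 1 receptor (Il6st, edgeR adjusted p = 0.0137) were called. DESeq2 called 408 genes and no receptor. Leaving out 1 library at a time gave 9 to 159 called genes, with 9 without cervical replicate 3, and 0 to 1 receptors, the 1 being Ngfr without cervical replicate 1. The count of called pathway genes was 1 in the region-only fit, 3 with the block or DESeq2, 4 without a filter on low counts, 0 with limma-voom and 0 to 1 with a library left out. The block changed no other receptor's call. The cause of these changes was not tested. These counts cannot assign a level to motor neurons.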
